A study of Mus musculus with 2 samples.

Results

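Genes that mark the resident macrophages of the spleen were examined in DNase-seq of whole spleen from 10-day-old male mice. The 10 genes were listed by name, 10 of 21938 annotated protein-coding genes, and all were found. Spic, Vcam1, Adgre1 and Cd163 were taken as genes of red pulp macrophages, Siglec1, Marco and Nr1h3 as genes of marginal zone macrophages, and Csf1r, C1qa and Mertk as genes of macrophages in general. DNase-seq cuts exposed DNA in nuclei with DNase I and sequences the cut ends, so a peak marks accessible chromatin, and a footprint inside a peak is a short stretch that was cut less than its surroundings. The mice were of the strain B6CASTF1/J, the first-generation cross of C57BL/6 and CAST/EiJ parents, so each nucleus carried an allele of each parent. Both libraries formed 1 group, biological replicates 1 and 2, with no treatment, genotype or age to compare. The labels number the biological replicates separately and give both the same donor identifier.

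Red pulp macrophages engulf aged red cells and return their iron to the blood, and they depend on the transcription factor SPI-C. Macrophages of the marginal zone, the border around the white pulp, capture particles from the blood, and their formation depends on the oxysterol receptor LXR-alpha, the product of Nr1h3. All of these cells depend on the receptor for CSF1, the product of Csf1r. Macrophages are a minority of spleen cells, and the tissue was not sorted, so each signal is a sum over all cell types present. In such bulk tissue, fewer cells with an open site and a site less open in each cell cannot be told apart.

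Replicate 1 had 130476 peaks and replicate 2 had 95847 in the longer of the deposited peak lists, used throughout. The medians of all peak signals were 0.578 and 0.553, on the deposited scale. The absolute depth is unknown, since no read totals entered the work, and signals are compared within a library or as ratios. Peaks of both libraries that overlapped by at least 1 bp were merged into 146575 sites, of which 73150 held a peak of both. With 1 group of 2 libraries no test between samples was possible, and genes are not replicates, so every comparison below is a description of these libraries.

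Of 67 sites found in both libraries in and around these genes, 6 lay at a promoter of the gene, 3 elsewhere inside it and 58 in the 50 kb either side. The flanks are far longer than the promoter windows, 16 of the 58 flanking sites lay at promoters of other protein-coding genes, and the member was the nearest protein-coding gene for 19. The sites whose sequences follow were chosen because they were the strongest outside protein-coding promoters with footprints in both libraries, or, at Nr1h3, because the site was the strongest promoter peak of any member. For Adgre1 a pair of neighbouring sites of near-equal signal is given, for C1qa the site nearest the gene, and for Nr1h3 the stretch between annotated exons. Positions are on mm10, letters were read from the RefSeq copy of GRCm38.p6 on the strand of the gene, and capitals mark bases inside footprints of both libraries.

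Nr1h3, chr2:91202835-91202884, minus strand: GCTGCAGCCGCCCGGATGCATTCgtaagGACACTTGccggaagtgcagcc
Siglec1, chr2:131094961-131095140, minus strand: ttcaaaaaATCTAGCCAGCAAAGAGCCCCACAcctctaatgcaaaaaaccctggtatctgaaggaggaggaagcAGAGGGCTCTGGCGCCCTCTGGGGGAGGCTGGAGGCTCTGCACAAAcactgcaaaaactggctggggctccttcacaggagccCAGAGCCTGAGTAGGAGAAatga
Marco, chr1:120469001-120469180, minus strand: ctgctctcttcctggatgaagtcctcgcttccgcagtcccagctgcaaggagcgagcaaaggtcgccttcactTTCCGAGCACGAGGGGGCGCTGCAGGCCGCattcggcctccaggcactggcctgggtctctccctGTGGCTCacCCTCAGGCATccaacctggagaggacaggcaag
Spic, chr10:88727241-88727440, minus strand: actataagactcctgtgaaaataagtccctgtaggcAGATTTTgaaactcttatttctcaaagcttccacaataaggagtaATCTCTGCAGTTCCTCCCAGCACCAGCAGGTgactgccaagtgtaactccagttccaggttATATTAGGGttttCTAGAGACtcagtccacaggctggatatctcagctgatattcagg
Adgre1, chr17:57334841-57335020, plus strand: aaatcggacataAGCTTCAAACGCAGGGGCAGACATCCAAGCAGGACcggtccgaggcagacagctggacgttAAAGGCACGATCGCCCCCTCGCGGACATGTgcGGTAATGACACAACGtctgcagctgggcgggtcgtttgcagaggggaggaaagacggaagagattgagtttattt
Adgre1, chr17:57335781-57335960, plus strand: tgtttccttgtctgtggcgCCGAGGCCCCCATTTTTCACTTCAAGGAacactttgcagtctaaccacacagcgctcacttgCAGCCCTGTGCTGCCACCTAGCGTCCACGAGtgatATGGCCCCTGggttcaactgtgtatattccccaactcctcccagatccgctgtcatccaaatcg
Cd163, chr6:124262801-124262980, plus strand: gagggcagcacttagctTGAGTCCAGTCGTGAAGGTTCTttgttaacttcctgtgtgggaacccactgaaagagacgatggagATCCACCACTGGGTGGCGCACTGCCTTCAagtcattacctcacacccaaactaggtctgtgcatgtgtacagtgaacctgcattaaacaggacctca
C1qa, chr4:136907181-136907360, minus strand: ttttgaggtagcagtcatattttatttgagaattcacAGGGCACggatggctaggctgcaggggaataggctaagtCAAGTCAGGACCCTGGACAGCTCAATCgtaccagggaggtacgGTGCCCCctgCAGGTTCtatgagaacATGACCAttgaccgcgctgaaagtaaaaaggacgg
Mertk, chr2:128698161-128698360, plus strand: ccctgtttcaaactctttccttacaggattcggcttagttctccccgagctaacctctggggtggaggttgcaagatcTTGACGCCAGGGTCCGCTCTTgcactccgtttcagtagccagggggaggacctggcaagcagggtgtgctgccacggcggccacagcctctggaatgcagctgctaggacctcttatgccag

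No sequence is shown for Vcam1, whose only site in both libraries lay over exon sequence, or for Csf1r.

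A promoter peak, within 500 bp of any annotated transcription start site (TSS), was present in both libraries at 5 of the 10 genes: Vcam1, Marco, Nr1h3, Csf1r and Mertk. Over all protein-coding genes the share was 60.7%, so the macrophage genes as a set lay near the background. The promoters of Spic, Adgre1, Cd163, Siglec1 and C1qa had no peak in either library. In replicate 1 alone the count was also 5, against 67.7% of all genes, and in replicate 2 alone it was 5, against 61.3%. The libraries named the same 5 genes. The promoters of the 5 genes without a peak held no base below a false discovery rate (FDR) of 0.05 in the deposited cut-rate lists of either library. The 5 genes with a peak all held such bases in both libraries, as did 61.8% of all genes. The FDR and peak lists come from the same libraries, so their match is not independent support. Weak peaks made up most of the count. In the shorter of the deposited peak lists 3 members had a promoter peak in both libraries (Vcam1, Nr1h3 and Mertk), against 56.2% of all genes. With peaks at or above the median signal of their library Nr1h3 alone had one, against 52.4%.

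Nr1h3 had by far the strongest promoter of the set. The signal was 7.22 in replicate 1 and 6.08 in replicate 2, above 50.9% and 72.0% of the promoters with a peak in those libraries. The peak, chr2:91202781-91202980, lay at the most upstream TSS of Nr1h3, that of a transcript not annotated as protein-coding. It also lay within 500 bp of the TSS of Acp2, a lysosomal acid phosphatase gene read in the opposite direction, whose TSS was 4 bp from the middle of the site. The signal of this site cannot be given to either gene alone. Leaving out peaks within 500 bp of another protein-coding gene's TSS, the count of members was still 5, against 51.9% of all genes. The sequence printed above is the 50 bp between the first exons of both genes. It held 31 footprint bases and, outside them, 1 match to the ETS motif CCGGAAGT, the binding sequence of a large family of transcription factors.

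The TSSs of the protein-coding Nr1h3 transcripts had a separate peak at chr2:91194621-91194840. Its signal was 1.68 in replicate 1 and 1.06 in replicate 2, and it held 2 and 3 footprints, with 3 overlapping pairs. With this peak in place of the one shared with Acp2, Nr1h3 was still the strongest promoter of the set in both libraries. A further peak at an internal TSS, chr2:91190761-91190938, was listed in replicate 1 alone (0.450).

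The other 4 promoters with a peak were weak for a promoter. Mertk, a receptor kinase through which macrophages engulf dying cells, had signals of 0.994 and 0.469 at its first TSS, above 20.6% and 11.9% of promoters with a peak in replicates 1 and 2. A second TSS of Mertk, 72347 bp into the gene, had 0.225 and 0.226. Vcam1, an adhesion molecule that red pulp macrophages carry and that stroma and endothelium carry too, had 0.559 and 0.356, above 13.0% and 7.68%. Csf1r had 0.555 and 0.377, above 12.9% and 8.53%. Marco, a scavenger receptor of marginal zone macrophages, had 0.499 and 0.234, above 11.5% and 2.65%. The Marco peaks were 2 different sites, chr1:120504146-120504340 in replicate 1 and chr1:120504841-120504918 in replicate 2, so no Marco promoter site was found in both. The median promoter with a peak had 6.93 in replicate 1 and 3.51 in replicate 2.

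**Figure D1:**
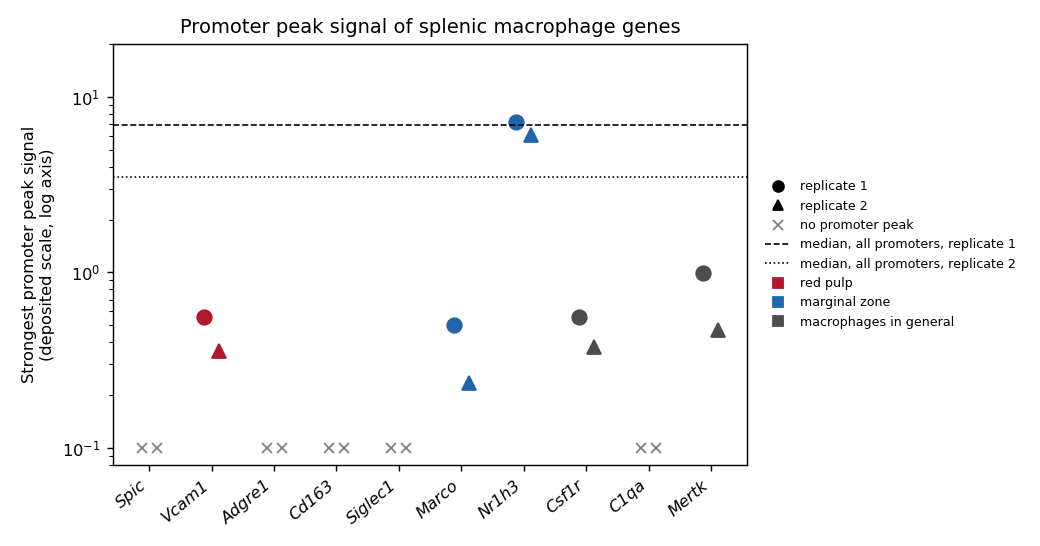
Signal of the strongest promoter peak of each gene (log axis, deposited scale) in replicate 1 (circles) and replicate 2 (triangles), coloured by group, with crosses where no peak was listed. Nr1h3, at a site shared with Acp2, lay above the median of all promoters in both libraries (dashed and dotted lines), and Vcam1, Marco, Csf1r and Mertk lay below 1.

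Promoters of these genes were mostly poor in CpG, the dinucleotide that is dense at broadly active promoters. The observed over expected CpG ratio, taken 500 bp either side of the most upstream TSS, placed 8 of the 10 in the lowest tercile of protein-coding genes. Only Nr1h3 (0.531) and Mertk (0.568) fell in the middle tercile. The most upstream TSS of Nr1h3 lies at the site shared with Acp2, and the ratio at its protein-coding TSSs was not taken. Of all genes in the lowest tercile, 19.1% had a promoter peak in both libraries, against 3 of the 8 members there (Vcam1, Marco and Csf1r). In the middle tercile the share was 70.2%, and both members had a peak. In neither tercile did the members' share lie below that of all genes. The count of 3 rests on weak peaks: the Csf1r peak lay 5323 bp from the TSS used for its CpG ratio, and the Marco peaks were different sites. In the shorter peak list Vcam1 alone of the 3 had a promoter peak in both libraries, and shares by tercile were not taken there.

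Footprints lay in promoter peaks of both libraries at Vcam1, Marco, Nr1h3 and Mertk, against 59.1% of all genes. Summed over its promoter peaks, Nr1h3 held 11 footprints in replicate 1 and 9 in replicate 2, Mertk 8 and 3, and Vcam1 3 and 5. Of the Nr1h3 footprints, 5 and 6 lay in the site shared with Acp2, and 2 and 3 in the peak of its protein-coding TSSs. The other 4 of replicate 1 lay in the internal peak listed in that library alone. Marco had 1 in each library, in different sites. The Csf1r promoter peak held 1 in replicate 1 and none in replicate 2. At the first TSS of Mertk no footprint of one library overlapped a footprint of the other, and at Vcam1 1 pair did.

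Inside the genes, away from their promoters, accessible sites were few. A site in both libraries was found inside Cd163, Marco and Csf1r, 1 each, and inside none of the other 7. Over all protein-coding genes, 44.7% held such a site, a share not adjusted for gene length. Adgre1, the longest member at 124837 bp, had 1 peak in each library, at different places, with signals of 0.326 in replicate 1 and 0.239 in replicate 2. Spic, Siglec1 and C1qa had no peak anywhere inside the gene in either library, and no base of their gene spans was listed below an FDR of 0.05. Replicate 1 had 12 peaks inside the 10 genes and replicate 2 had 4.

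The strongest of the 3 internal sites lay in an intron of Csf1r, the gene of the CSF1 receptor. It was at chr18:61108541-61108820, 2802 bp from the nearest TSS of a Csf1r transcript, with signals of 1.86 in replicate 1 and 0.879 in replicate 2. It was stronger than the Csf1r promoter peak in both libraries. Each library had 5 footprints in it, forming 5 overlapping pairs. An intronic enhancer of Csf1r, the Fms intronic regulatory element, is well known, and whether this site is that element was not tested. Replicate 1 listed 5 further sites inside Csf1r, with signals of 0.304 to 0.461, that replicate 2 did not.

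In Marco the internal site lay in an intron, chr1:120501581-120501824, 3321 bp from the most upstream TSS, with signals of 0.765 and 0.331. It held 2 footprints in each library, and none overlapped between them. In Cd163, a receptor that takes up hemoglobin bound to haptoglobin, the internal site lay over an exon near the end of the gene, chr6:124329721-124329913, with signals of 0.416 and 0.423. Replicate 1 alone had 2 more sites in Cd163, with signals of 0.476 and 0.514.

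In the 50 kb either side of the genes, 58 sites were found in both libraries, 16 of them at promoters of other protein-coding genes. All members except Vcam1 had at least 1 flanking site in both libraries, which was so for 83.1% of all genes. The same 9 had at least 1 outside protein-coding promoters, against 80.4%. Vcam1 had 4 flanking peaks in replicate 1 and none in replicate 2. The member itself was the nearest protein-coding gene for 19 of the 42 sites outside promoters. Per 100 kb of gene and flanks, the median member had 4.79 sites in both, and the median protein-coding gene 5.50. Siglec1 was the densest with 11.9, above 82.7% of genes, and Vcam1 the sparsest with 0.835, above 16.2%. Of the Siglec1 sites counted, only those 8286 and 9876 bp upstream had Siglec1 as the nearest protein-coding gene. The others were nearest to Gfra4, Adam33, Hspa12b or Gm11037.

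Siglec1, a sialic acid receptor of the metallophilic macrophages at the inner edge of the marginal zone, had no accessible site in the gene but a strong one 8286 bp upstream. That site, chr2:131094961-131095140, had signals of 4.91 in replicate 1 and 3.18 in replicate 2, above 90.0% and 89.9% of all peaks. It held 3 footprints in each library, forming 3 overlapping pairs, which cover 89 of the 180 bases printed above. A second site 9876 bp upstream had 1.04 and 1.05. Of the 14 flanking sites of Siglec1, 5 lay at promoters of other genes. One of them, 576 bp from the nearest TSS of the metalloprotease gene Adam33, had 6.44 and 2.81, stronger than the site 8286 bp upstream of Siglec1 in replicate 1 and weaker in replicate 2.

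Adgre1 encodes the antigen by which mouse macrophages are most often recognised. A pair of strong sites lay 23760 and 22820 bp upstream of it, in intergenic DNA. Their signals were 8.03 and 7.52 in replicate 1 and 4.09 and 4.13 in replicate 2, above 93.6% and 93.2% of all peaks in replicate 1 and 92.5% and 92.6% in replicate 2. The sites held 80 and 69 footprint bases shared by both libraries. The first lay slightly nearer a TSS of Vav1 (23035 bp), a signalling gene of blood cells, than that of Adgre1. Closer to Adgre1 there were sites 14302, 11532 and 9450 bp upstream, with signals of 0.518 to 1.92 in replicate 1 and 0.628 to 0.867 in replicate 2.

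Spic, the gene of the transcription factor on which red pulp macrophages depend, had 5 flanking sites in both libraries and 2 more in replicate 1 alone. The 2 strongest in both libraries lay 46366 and 42326 bp upstream. One, at chr10:88731281-88731480, was the promoter of the neighbouring gene Arl1, with 8.35 and 3.54. The other, at chr10:88727241-88727440, 3517 bp from the Arl1 TSS, had 1.62 and 0.641 and 4 footprints in each library, forming 4 overlapping pairs. The only site downstream of the gene, chr10:88669835-88669997, was weak, with 0.424 and 0.243. The nearest protein-coding TSS to the strong sites was that of Arl1, not Spic.

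Cd163 had 7 flanking sites in both libraries, in 2 clusters with a single weak site (0.540 and 0.314) between them. The strongest, 41765 bp upstream, had 6.64 and 2.52, and a neighbour 43915 bp upstream had 2.93 and 1.64, and both were nearer to the TSS of Vmn2r27, a pheromone receptor gene, than to that of Cd163. Sites 71095 and 74875 bp downstream of the Cd163 TSS, with 3.02 and 1.65 and with 3.14 and 1.94, were nearer to Pex5. Marco had 6 flanking sites, none at another promoter. The strongest lay 35933 bp downstream of its most upstream TSS, beyond the gene's end, with 1.74 and 0.825, and the other 5 had signals of 0.300 to 0.668 in replicate 1 and 0.239 to 0.632 in replicate 2.

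C1qa encodes a chain of complement component C1q and lies in a cluster with C1qb and C1qc, the genes of the other chains. Over the 18675 bp of the cluster, chr4:136880129-136898803, no site was found in both libraries, and 5 sites were found in 1. The flanking sites of C1qa included one 8468 bp upstream with 1.28 and 0.611 and one 25928 bp upstream with 1.82 and 0.703. The first is printed above, with 55 bases in footprints of both libraries. Mertk had a site 695 bp upstream of its first TSS, just outside the promoter window, with 1.47 and 0.561, stronger than its promoter peak in both libraries. Its 4 other flanking sites were promoters of Anapc1 and Tmem87b.

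Nr1h3 had 4 flanking sites in both libraries, and 3 of them were promoters of Madd and Ddb2, with signals up to 27.9 in replicate 1 and 7.56 in replicate 2. Csf1r had 8, with the strongest, 6.98 and 3.23, in an intron of the neighbouring receptor gene Pdgfrb, 32007 bp upstream. Pdgfrb is a gene of stroma, and the site was nearer to a Pdgfrb TSS (23391 bp) than to the most upstream TSS of Csf1r.

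**Figure D2:**
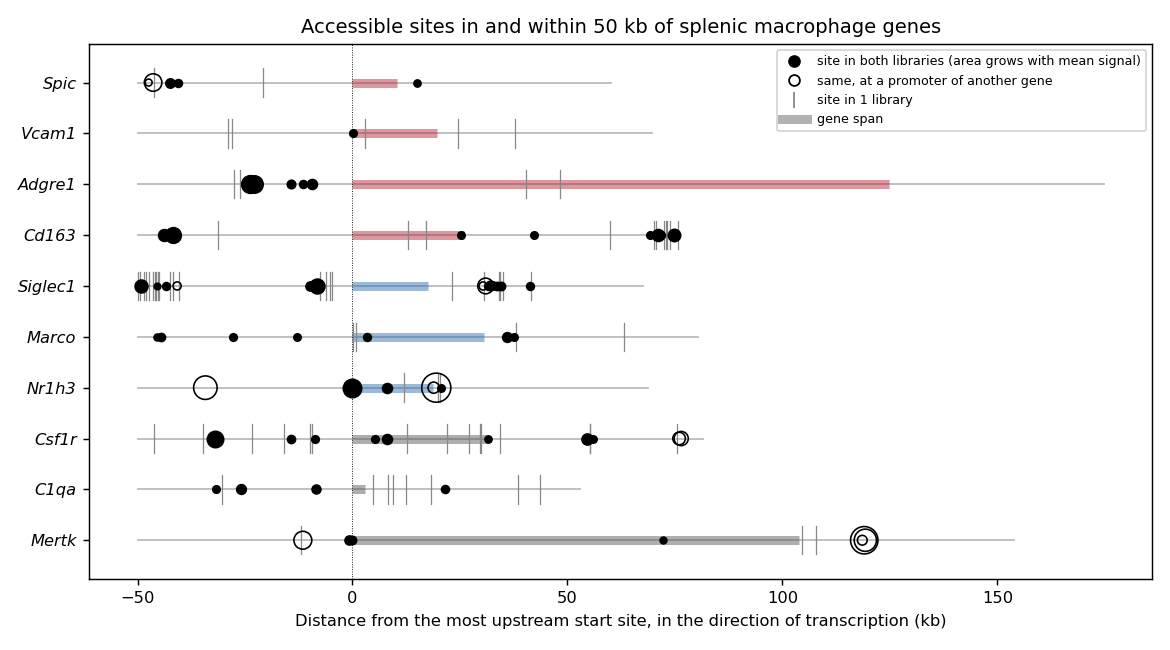
Sites within 50 kb of each gene by distance from its most upstream start site in the direction of transcription (kb); filled circles are sites in both libraries, open circles are flanking sites at promoters of other protein-coding genes, ticks are sites in 1 library, and coloured bars are gene spans. Circle area grows with the mean signal, and the largest filled circles lie at the start of Nr1h3 and upstream of Adgre1, Csf1r, Cd163 and Siglec1.

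Red pulp and marginal zone genes were set side by side. Of the 4 red pulp genes, only Vcam1 had a promoter peak in both libraries. Of the 3 marginal zone genes, Marco and Nr1h3 did, though the Marco peaks were different sites and the stronger Nr1h3 peak was shared with Acp2. Counting only a site found in both libraries, the counts were 1 of 4 (Vcam1) and 1 of 3 (Nr1h3), against 60.5% of all genes. Red pulp genes had 0.835 to 6.36 sites in both libraries per 100 kb, with a median of 3.38, and marginal zone genes 5.05 to 11.9, with a median of 5.36. The ranges overlapped, since Cd163 lay above Marco and Nr1h3. The top value, 11.9, was that of Siglec1 and came mostly from sites nearest to other genes. Outside protein-coding promoters the flanks of the 4 red pulp genes held 15 sites in both libraries and those of the 3 marginal zone genes 16. The member was the nearest protein-coding gene for 6 of the 15 and for 8 of the 16. Each group held 1 internal site in both, in Cd163 and in Marco. With 4 genes against 3, in the same libraries, no test of the difference was made.

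Promoters of other genes tied to these macrophages were counted in 6 lists. Of the 49 genes in them, 35 carried a promoter peak in each library, 7 in 1 library and 7 in neither, against the 60.7% of all genes. For the CSF1 receptor axis the count was 9 of 10, with Runx1 (6.69 and 2.75 in replicates 1 and 2) and Irf8 (5.22 and 2.28) the strongest by mean signal and Il34, a second ligand of the receptor, in replicate 1 alone. Spi1, which encodes the macrophage and B cell factor PU.1, had 2.93 and 0.997. LXR partners and targets had 7 of 8, led by Lpcat3 (42.5 and 13.5), a phospholipid enzyme, and Mylip (31.08 and 12.004), which degrades the LDL receptor. Apoe, the apolipoprotein gene, had a peak in replicate 1 alone (0.728). Red pulp and iron recycling genes had 7 of 10, led by Blvrb (28.5 and 11.2), a biliverdin reductase, and Bach1 (26.5 and 9.62), the heme sensor that represses Spic. Hmox1, heme oxygenase, had 4.95 and 1.53, while Cd5l, a secreted macrophage protein, had no peak in either library.

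Marginal zone and scavenger receptor genes had 2 of 7, Stab1 (0.506 and 0.297) and Colec12 (0.435 and 0.310). Cd209b, a lectin of marginal zone macrophages, Msr1, Cd36 and Mrc1 had none in either library. Complement and efferocytosis genes had 5 of 9, with Cd68 (2.20 and 1.19), a lysosomal protein, and C3 (1.51 and 0.917) the strongest. C1qc and Timd4, a receptor for dying cells, had no peak in either library, and C1qb and Axl had one in replicate 1 alone. The VCAM1 and integrin list had 5 of 5, with Itga4 (18.2 and 9.43), a chain of the VCAM1 receptor, and Itgb1 (7.57 and 2.75) the strongest. These lists are short, and many of their genes are active in other cells of the spleen.

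Markers of other cells, counted the same way, gave 6 of 6 for B cells and for red cells, 4 of 6 for T cells, 5 of 6 for endothelium and stroma (not Tek), and 3 of 6 for neutrophils and for dendritic cells. Of 4 genes of Kupffer cells or microglia, the macrophages of liver and brain, P2ry12 had a weak peak in both (0.263 and 0.281), Tmem119 had one in replicate 1 alone (0.664), and Clec4f and Sall1 had none. None of 4 liver genes had a peak. Their part in the signals at the macrophage genes was not tested. The endothelial and stromal markers other than Tek had promoter signals at or above that of Vcam1 in both libraries. They were Pecam1 (0.953 and 0.712), Cdh5 (0.788 and 0.544), Kdr (1.16 and 0.607), Pdgfrb (0.724 and 0.356) and Col1a1 (5.68 and 2.86). All the B cell and red cell markers also lay above Vcam1 in both libraries, so this was not particular to endothelium and stroma.

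**Figure D3:**
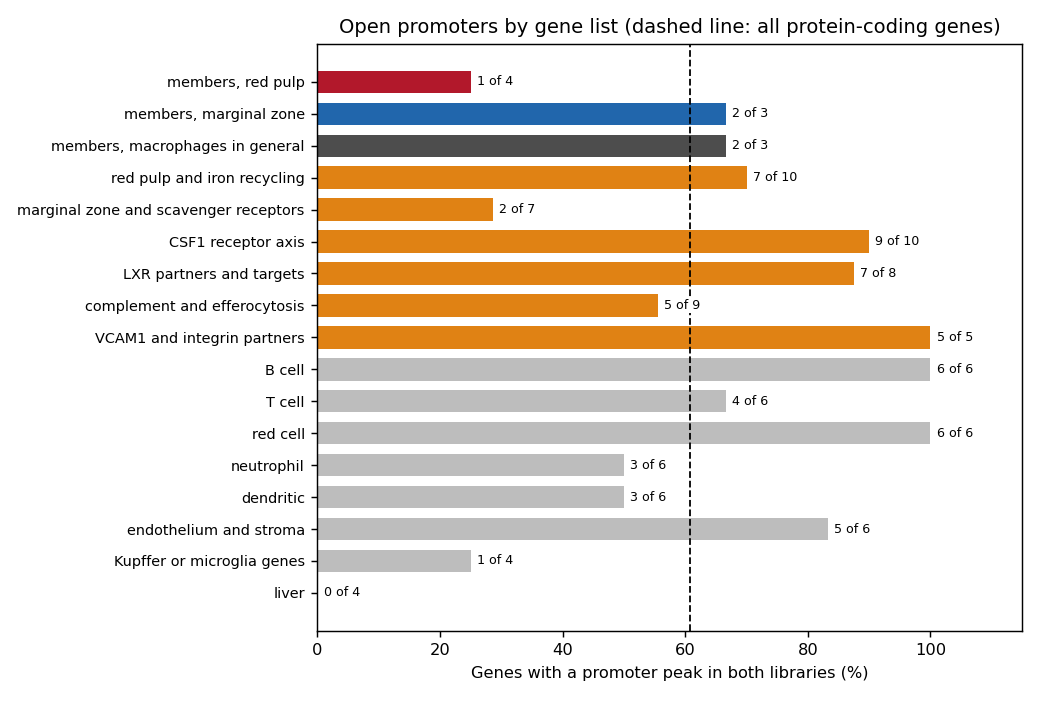
Share of genes whose promoter held a peak in each of the libraries (%, horizontal axis) for the 3 groups of macrophage genes, 6 lists of related genes (orange) and 8 lists of other cells (grey), with counts beside the bars. The dashed line is the 60.7% of all protein-coding genes; 7 bars lie below it, among them red pulp (1 of 4) and liver (0 of 4), and the B cell and red cell bars reach 6 of 6.

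The promoter signals of the libraries were also set against each other. Over all 13323 promoters with a peak in both, the median log2 ratio, replicate 1 over replicate 2, was 1.28, and the quartiles were 1.02 and 1.49. The Nr1h3 ratio, at the site shared with Acp2, was 0.25, and at the separate peak of its protein-coding TSSs it was 0.67. Among 2005 promoters of like signal to the shared site, with a mean from 0.8 times that of the site up to the inverse of that factor, 26 had a lower ratio (1.30%), and the median was 1.31. Vcam1 had 0.65 and Csf1r 0.56, with medians of 0.91 among promoters of like signal, of which 29.9% and 24.2% had lower ratios. Mertk had 1.08 and Marco, from 2 different sites, 1.09, beside medians of 1.07 and 0.81 there. All 5 members lay below the median of all promoters. Over the 67 member sites in both libraries the median ratio was 0.80, near the 0.84 of all sites in both. The scale of each library is not stated, so a ratio of 0 is not a point of equal accessibility.

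**Figure D4:**
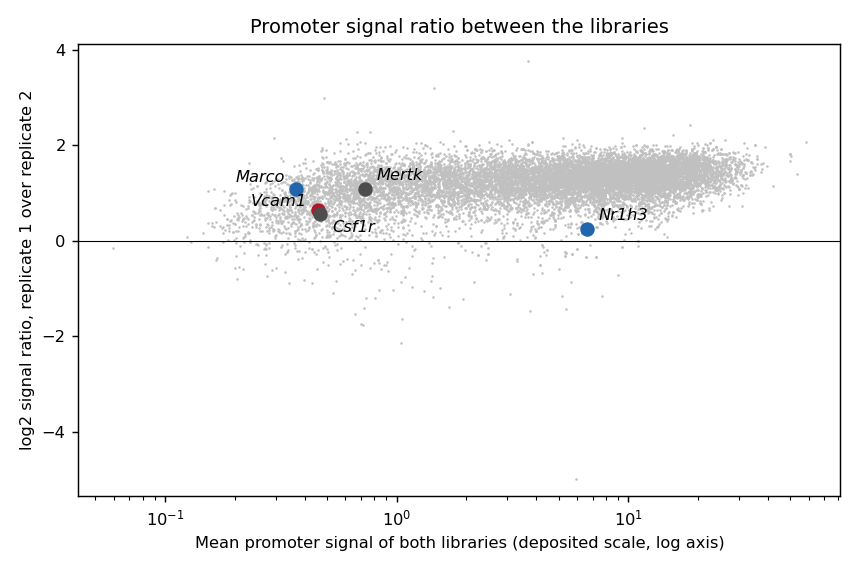
Log2 ratio of promoter signal, replicate 1 over replicate 2 (vertical axis), against the mean promoter signal of both libraries (log axis) for all protein-coding genes with a promoter peak in both (grey) and 5 macrophage genes (coloured by group). Nr1h3, at 0.25 for the site shared with Acp2, lies at the lower edge of promoters of like signal, and Vcam1, Csf1r, Marco and Mertk lie within the cloud.

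Of the 67 member sites in both libraries, 48 held at least 1 pair of overlapping footprints, 71.6%, against 75.2% of all sites in both. Sequence motifs were searched on both strands in the 200 bp at the centre of 51 member sites, those at a member's own promoter or outside all protein-coding promoters. The macrophage motif PU.1, GAGGAAGT, was found in 2 windows, in flanks of Marco and Csf1r, against 3.67% of all site windows and 4.27% of those outside protein-coding promoters. A PU.1 match just past the end of Csf1r overlapped a footprint of replicate 1 alone. The PU.1-IRF composite GGAANNGAA was found in 4 windows (6.49% of all), at Cd163, C1qa and Mertk, the interferon response sequence GAAANNGAA in 3 (5.32%), RUNX, TGTGGTTT, in 2 (1.96%), AP-1, TGANTCA, in 4 (5.56%) and C/EBP, TTGCNNAA, in 1 (7.28%). The MAF recognition core TGCTGA was found in 7 (16.4%) and the sequence AGATAA of GATA factors in 5 (8.39%). The TATA box sequence TATAAA was found in 2 (5.20%), and the ETS sequence in 1 (1.80%). These bracketed shares are of all site windows, including promoters of other genes, which the 51 leave out. In windows outside protein-coding promoters the shares were 7.37% (PU.1-IRF), 5.99% (interferon response), 2.49% (RUNX), 6.54% (AP-1) and 8.19% (C/EBP). For the rest they were 18.5% (MAF), 10.4% (GATA), 6.25% (TATA) and 0.666% (ETS). Matches to GAGGAAGT and GGAANNGAA can overlap. The direct repeat with a 4-base gap to which LXR binds was in no member window and in 0.0109% of all.

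A CTCF core, AGNNGGCGC, from the motif of a protein that shapes chromatin loops, was added after the strong flanking sites had been seen. It was found in 4 of the 51 windows, against 10.7% of all site windows, at the strongest sites outside promoters of Siglec1, Marco and Csf1r and at a site downstream of Cd163. All 4 matches overlapped footprints of both libraries, as did 85.2% of matches in all sites outside protein-coding promoters. In the printed Siglec1 and Marco sequences the match lies in the longest run of capitals. The pair of sites upstream of Adgre1 held no exact match to any of the 12 motifs, and near matches were not searched. At the same Marco site an interferon response match overlapped footprints of both libraries in part, with some of its bases outside the capitals printed above, and a match at a Csf1r flank also overlapped footprints of both. Of all 40 motif matches in the member windows, the other 34 did not overlap footprints of both libraries. Such overlap was also uncommon in all sites outside protein-coding promoters. There it ranged from 7.98% of matches (PU.1) to 28.5% (ETS) for motifs other than the CTCF core. Promoter entries of the RefSeq table, 250 bases before to 50 after a start, were present for Spic, Cd163, Marco, Nr1h3 and Mertk. Among them, the PU.1-IRF composite was found in Marco (8.24% of all entries), the MAF core in Spic (19.5%) and the CTCF core in Mertk (7.23%), and no other motif was found.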

How the data were processed

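DNase-seq peaks, footprints and FDR lists of 2 spleen libraries were used as deposited, each derived from its own library's filtered alignment to mm10 per the deposited README. Neither aligner nor callers, nor their versions, were named in the sources read. The peak signal is the authors' deposited value on a scale that is not stated. The FDR of the cut rate, a corrected p-value, was listed by the authors only below 0.05, and the deposited value of every footprint was the constant 0.01, a p-value that was not used.

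Genes and TSSs came from GENCODE M21. No deposited peak lay beyond a chromosome end of the GRCm38 reference. A promoter site overlapped 500 bp either side of a TSS, an internal site had its midpoint in the gene, and a flanking site had its midpoint within 50 kb. Footprints counted when wholly inside a peak of their library. Analyses used Python 3.11.15, pysam 0.24.0 and bedtools 2.31.1, and the zone and motif functions were tested on planted peaks and sequences. Members, lists and alternatives were chosen with earlier results of these data known. All 10 members were named, with the strongest sites of each, and from each related list the 2 strongest promoters and the genes without a peak in either library. Hmox1, Spi1, Il34, Apoe, C1qb, Axl and the markers of other cells named singly were chosen after their values were seen, as was the CTCF core, 1 of 12 motifs searched. The alternatives that ask for the same site in both libraries or leave out peaks at other genes' TSSs were added after the data had been seen. Reads of CAST/EiJ alleles were aligned to the reference, and what that does to the signals was not tested.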

Additional observations from a re-analysis of the deposited data

How the results depend on the processing

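With the shorter peak list, promoter peaks in both libraries fell to 3 members (Vcam1, Nr1h3 and Mertk, against 56.2% of all genes). With peaks at or above the median signal 1 member was left (Nr1h3, against 52.4%), as was 1 with a footprint there, and its ratio of 0.25 was then the median. That setting left 1 internal site and 34 flanking sites. Flanks of 25 kb gave 35 sites and flanks of 100 kb gave 111. With 100 bp windows, 14 member sites held any motif other than the CTCF core, against 26 of 51 at 200 bp. The share of all site windows holding any such motif was not taken, so these counts have no background beside them. Leaving out each replicate gave 4 to 12 internal sites and 81 to 101 flanking sites, 5 promoter peaks either way and 4 to 5 members with a promoter footprint. Replicate 2 alone gave 4 internal sites and replicate 1 alone 12. Of 38 alternative values, 27 kept counts within 1.5 times, or ratios within 1 SD, of those reported, and 11 did not. No alternative median ratio changed sign, a change that counts cannot show. No paired analysis was possible because there is 1 group.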
